A study of Mus musculus with 2 samples.

Results

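Ly6a, Ly6c1, Ly6c2 and Ly6e, 4 genes of the mouse lymphocyte antigen 6 (Ly6) family, were followed through the tumour, myeloid and T cells of mouse lung tumours. They were found by gene symbol and make up 4 of the 34097 genes listed in the files. The set was selected on its measured levels across these cell classes in the same libraries, so the levels below are a description and support nothing about the choice. Single-cell RNA was counted on the 10x Genomics platform, as unique molecular identifiers (UMIs, 1 per captured RNA molecule), in 2 libraries. They came from tumours of LLC, the mouse Lewis lung carcinoma line, which the labels call a lung cancer xenograft. The control group was 1 library, titled NC. The other group was 1 library, titled SH, grown with a short hairpin RNA (shRNA) against GFPT2, and it is called the knockdown library here. The labels give neither the host strain nor the age of the mice, nor the number of animals behind a library. With 1 library a group there was no replicate check, no test was run, and every 95% interval below covers counting error only.

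Ly6 proteins are small, cysteine-rich proteins held in the outer leaflet of the cell membrane by a glycosylphosphatidylinositol (GPI) anchor, and in mouse many of their genes lie side by side on chromosome 15. Ly6a encodes Sca-1, used to mark haematopoietic stem cells and also found on activated T cells, on endothelium and on many mesenchymal cells. Ly6e is a broadly expressed member, the receptor for the fusogenic protein syncytin-A in the placenta and a restriction factor for coronaviruses, and both Ly6a and Ly6e are interferon-inducible. Ly6c1 and Ly6c2 together encode the Ly6C antigen, by which inflammatory monocytes and memory CD8 T cells are sorted. Antibodies to Ly6C do not readily tell the 2 proteins apart, while RNA counts can where the sequences differ.

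Whether reads can tell Ly6c1 (ENSMUSG00000079018) from Ly6c2 (ENSMUSG00000022584) bears on the values of both genes below, so their coding sequences are shown first. The longest open reading frame of transcript 201 of each gene in GENCODE M21 had 396 bases. Of these, 387 bases were identical (97.7%) and 9 differed. The first 300 bases of each are printed 5′ to 3′, with the 7 bases in them that differ between both genes in capitals.
Ly6c1: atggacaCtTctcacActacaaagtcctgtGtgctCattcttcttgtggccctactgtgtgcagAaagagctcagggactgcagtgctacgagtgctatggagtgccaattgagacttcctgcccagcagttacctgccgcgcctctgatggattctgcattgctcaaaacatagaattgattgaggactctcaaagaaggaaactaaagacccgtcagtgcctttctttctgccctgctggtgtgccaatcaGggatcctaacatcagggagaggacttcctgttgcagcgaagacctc
Ly6c2: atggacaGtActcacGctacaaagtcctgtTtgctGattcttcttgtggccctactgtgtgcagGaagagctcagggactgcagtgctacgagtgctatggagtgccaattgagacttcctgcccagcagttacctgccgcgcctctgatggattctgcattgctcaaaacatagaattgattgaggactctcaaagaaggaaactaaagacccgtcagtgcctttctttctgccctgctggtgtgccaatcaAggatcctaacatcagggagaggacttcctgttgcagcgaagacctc
The first 6 differences lie close to the start of the coding sequence, and a long stretch after them is the same in both genes. In the last 500 bases of the transcripts, 35 of the 411 windows of 90 bases (8.52%) were found unchanged in the other gene. No such window was shared between Ly6a or Ly6e and another member. Ly6a was 82.0% identical to Ly6c1 and 81.7% to Ly6c2 over the coding sequence, and Ly6e was 49.0% to 53.8% identical to the other members. How the authors' counting treated a read that fits both Ly6c genes is not given in the sources used here, so counts of Ly6c1 and Ly6c2 are uncertain to that extent.

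The windows around the starts of both Ly6c genes are shown because their levels went opposite ways between tumour-like cells and monocytes. RefSeq windows (250 bases before to 50 after a start, GRCm38.p6) were held for 2 members, Ly6c1 and Ly6c2, with 2 starts each, and the pair of starts with the most identical bases is printed. Of 266 aligned bases, 208 were identical (78.2%). In Ly6c2 the capitals mark the PU-box GAGGAAGT, the letters bound by the myeloid and lymphoid factor PU.1. In Ly6c1 they mark the bases aligned with those boxes, and the window ends 3 bases into the stretch aligned with the downstream box.
Ly6c1, chr15:75048788-75049087, minus strand: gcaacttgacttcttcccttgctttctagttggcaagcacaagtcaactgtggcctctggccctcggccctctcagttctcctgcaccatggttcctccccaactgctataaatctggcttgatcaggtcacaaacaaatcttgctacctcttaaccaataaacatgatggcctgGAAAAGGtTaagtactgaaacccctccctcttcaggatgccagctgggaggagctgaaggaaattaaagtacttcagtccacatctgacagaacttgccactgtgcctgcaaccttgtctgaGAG
Ly6c2, chr15:75111922-75112221, minus strand: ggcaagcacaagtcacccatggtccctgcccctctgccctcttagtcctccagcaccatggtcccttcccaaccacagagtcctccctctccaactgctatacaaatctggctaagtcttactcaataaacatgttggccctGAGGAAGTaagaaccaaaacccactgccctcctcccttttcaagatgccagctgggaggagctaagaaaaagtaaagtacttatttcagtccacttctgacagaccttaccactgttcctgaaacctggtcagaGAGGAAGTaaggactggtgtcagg
GAGGAAGT, read on both strands, was found 2 times in this Ly6c2 window and in the window of the other Ly6c2 start, and 1 time at the other Ly6c1 start. This Ly6c1 window held 0 matches, but its end leaves out most of the stretch aligned with the downstream box, so whether the box is there was not seen in it. Of 32851 windows of the same length, 3.20% held it at least 1 time and 0.0609% at least 2 times. The Ly6c1 window held 1 TATAAA, found in 13.6% of windows, and 1 CCAAT, found in 37.4%, and neither was in the Ly6c2 window. The interferon-response core (GAAA, any 2 bases, GAAA), the GAS core TTCNNNGAA and the E-box CACCTG were in neither window, and 3.44%, 8.30% and 20.2% of all windows held them. A match describes letters, not binding.

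Cells were kept with at least 200 detected genes and at most 20% mitochondrial UMIs after the removal of likely doublets, which left 10662 control and 11450 knockdown cells. Before filtering, the 11977 control barcodes held 165824226 UMIs and the 12853 knockdown barcodes 138402860 UMIs, and the libraries shared 37 barcodes. Gfpt2, the targeted gene, was counted at 1.76 (control) and 0.574 (knockdown) CPM (CPM, UMIs of a gene per 1000000 UMIs of the same cells). Macrophages were cells with at least 10 C1qa, C1qb and C1qc UMIs per 10000, which were 3990 control and 4557 knockdown cells. Monocytes had at least 20 Lyz2 and under 5 C1q UMIs per 10000 (144 and 40 cells), and T cells at least 2 Cd3d, Cd3e and Cd3g UMIs (786 and 676 cells). Tumour-like cells had no Ptprc UMI, under 5 Lyz2 UMIs per 10000 and at least 5000 UMIs (4986 and 5211 cells). A cell could pass more than 1 gate, as 327 cells did, and 2049 cells passed none.

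The gates were set against their markers. Macrophages held all 7 macrophage markers. Monocytes held the 6 monocyte markers other than Ly6c2, but also UMIs of all 7 macrophage markers, and the control monocytes had 1236 CPM of the 5 neutrophil markers against 74.5 CPM in the knockdown library, where 2 of the 5 had a UMI. Tumour-like cells nearly lacked the epithelial genes Krt8, Krt18 and Epcam, each with at most 9 UMIs in a library. They held Hmga2 at 219.7 and 218 CPM and the 6 fibroblast markers at a summed 2560.0 and 2873 CPM. Most of the fibroblast sum was Dcn (1027 and 1076 CPM) and Col3a1 (1410 and 1643 CPM). Lum had only 72 and 61 UMIs and Thy1 29 and 40 UMIs, so those markers were nearly lacking. Xist was at 2.88 and 3.99 CPM in tumour-like cells against 493 and 393 CPM in macrophages. Tumour RNA, taken as the sum of Hmga2, Dcn and Col3a1, also reached the immune gates: 319.9 control and 868 knockdown CPM in macrophages, 216 and 708 CPM in monocytes, and 1134 and 928 CPM in T cells. Values in macrophages and T cells are therefore given a second time for cells under 3 such UMIs per 10000, called cells with low tumour RNA, a limit chosen after the data were seen. There the sum was 66.4 and 70.3 CPM in macrophages and 47.8 and 52.4 CPM in T cells.

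The UMIs of the members were spread differently over the classes. Tumour-like cells, with 74.6% of all control and 74.0% of all knockdown UMIs, held 71.7% of control and 70.6% of knockdown Ly6a UMIs, 68.4% and 69.1% of Ly6e UMIs, and 89.2% and 87.8% of Ly6c1 UMIs. The shares of Ly6a and Ly6e were thus below the share of all UMIs and that of Ly6c1 above it. Ly6c2 lay elsewhere: T cells held 37.9% and 48.1% of its UMIs, macrophages 30.8% and 31.8%, monocytes 21.3% and 14.1%, and tumour-like cells 3.95% and 6.41%. Over all kept cells Ly6c2 went from 2075 control UMIs (14.9 CPM) to 780 knockdown UMIs (6.58 CPM), which is -1.18 as a log2 ratio (-1.30 to -1.06). Over the same cells the ratios of the other members were 0.17 for Ly6a, 0.12 for Ly6c1 and 0.19 for Ly6e.

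**Figure D1:**
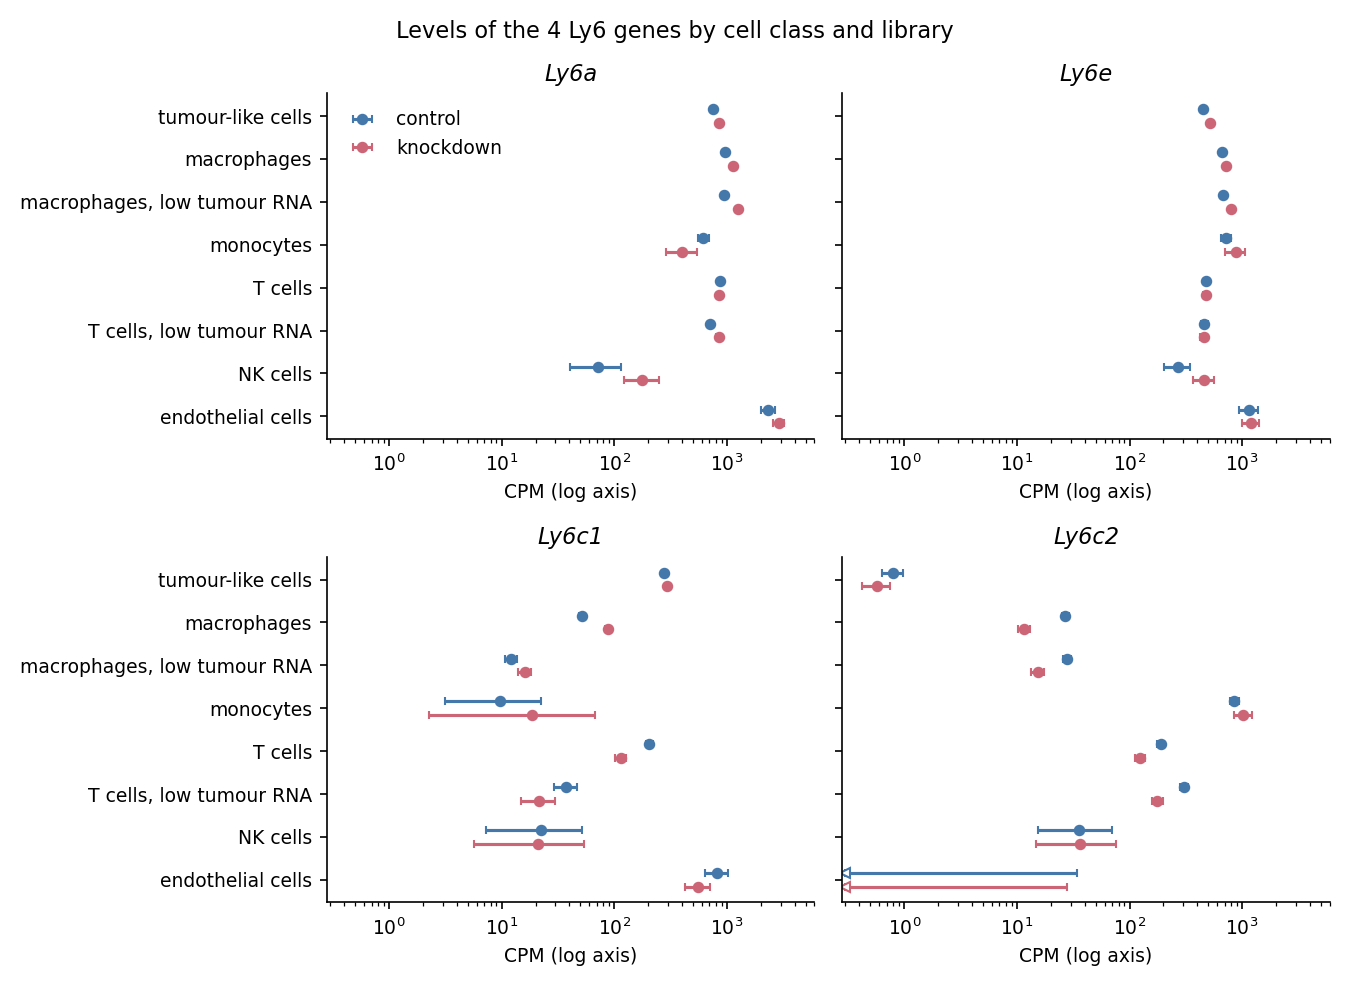
Levels of Ly6a, Ly6e, Ly6c1 and Ly6c2 in CPM on a log axis, by cell class, in the control (blue) and knockdown (red) libraries, with 1 library a point. Bars are exact 95% Poisson intervals, and open triangles are counts of 0, drawn at the left edge with a bar up to 3 counts. Ly6a and Ly6e lie within a narrow band in most classes, whereas Ly6c1 is high in tumour-like and endothelial cells and Ly6c2 in monocytes.

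Ly6c2, the Ly6C gene of monocytes, reached 852 CPM (774 to 935) in monocytes of the control and 1024 CPM (842 to 1234) in those of the knockdown library. T cells had 189 and 123 CPM, macrophages 27.0 and 11.5 CPM, and tumour-like cells 0.791 and 0.570 CPM from 82 and 50 UMIs. The order monocytes, T cells, macrophages, tumour-like cells was the same in both libraries, with no overlap of neighbouring intervals. In NK cells (34 and 33 cells) 8 and 7 UMIs gave 35.7 and 36.7 CPM, but without the 1 cell of most UMIs in each library 13.8 and 15.98 CPM. In endothelial cells (11 and 13 cells) no Ly6c2 UMI was counted, which allows up to 34.2 and 28.1 CPM.

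Ly6c1, the copy of Ly6c2 known from vascular endothelium, had nearly the reverse order. It was at 819.8 and 552 CPM in endothelial cells, 275 and 296 CPM in tumour-like cells, 205 and 114 CPM in T cells and 51.3 and 87.4 CPM in macrophages. Monocytes had 5 control and 2 knockdown UMIs, or 9.66 CPM (3.13 to 22.5) and 18.6 CPM (2.26 to 67.3). In cells with low tumour RNA the levels were lower, at 37.1 and 21.3 CPM in T cells and 12.1 and 15.99 CPM in macrophages, and those macrophages overlapped the monocytes in both libraries. In those T cells 1 control cell held 34 of the 73 Ly6c1 UMIs, and without the cell of most UMIs in each library the levels were 19.9 and 16.1 CPM.

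Set against each other, the Ly6c genes split monocytes from tumour-like and endothelial cells almost completely, with T cells and macrophages between them. Ly6c2 made up 98.9% (97.4 to 99.6) of the UMIs of both Ly6c genes in control and 98.2% (93.7 to 99.8) in knockdown monocytes. In tumour-like cells it made up 0.286% and 0.192%, and in endothelial cells 0 of 72 and 0 of 59 UMIs. Over all T cells the share was 48.0% and 51.9%, but with low tumour RNA it was 89.1% (86.4 to 91.3) and 89.3% (85.4 to 92.4). The share in macrophages was 34.4% and 11.7%, and with low tumour RNA 69.9% (66.5 to 73.0) and 48.9% (43.9 to 53.9). Transcript 201 has 844 bases in Ly6c1 and 822 in Ly6c2, so length differs little between them.

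Ly6a, which encodes Sca-1, was counted in every class. Its levels were 2334 and 2875 CPM in endothelial cells, 968 and 1139 CPM in macrophages, 873 and 853 CPM in T cells, 757 and 845 CPM in tumour-like cells and 616 and 400 CPM in monocytes. In the knockdown library the intervals of T cells (820 to 886) and tumour-like cells (839 to 851) overlapped, so those neighbours did not differ beyond counting error. NK cells were lowest, at 71.3 CPM (40.8 to 116) and 178 CPM (123 to 248.8), the lowest of the classes named here, and without the 1 cell of most UMIs, a setting added after seeing the data, the knockdown value was 82.9 CPM. Cells varied widely within a class: the 10% of tumour-like cells with the most UMIs held 46.8% of control and 43.7% of knockdown Ly6a UMIs.

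Ly6e was the most even member. It was at 1150 and 1199 CPM in endothelial cells, 718 and 875 CPM in monocytes and 669.5 and 719.5 CPM in macrophages. T cells had 477 and 474 CPM and tumour-like cells 451 and 522 CPM. NK cells (34 and 33 cells) had 267 CPM (204 to 344) and 456 CPM (365 to 562). Monocytes and macrophages overlapped in both libraries, and T cells lay above tumour-like cells in the control and below them in the knockdown library. A Ly6e UMI was found in 97.3% of control and 97.4% of knockdown tumour-like cells, against 89.1% and 87.9% for Ly6a and 65.9% and 65.6% for Ly6c1. The 10% of tumour-like cells with the most UMIs held 30.5% and 29.5% of Ly6e UMIs.

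At equal depth the shares of cells with a UMI showed the same places. After each cell was thinned to 2000 UMIs, Ly6c2 was found in 62.6% of 121 control monocytes and 74.7% of 24 knockdown monocytes, in 26.2% and 15.5% of T cells, and in 3.19% and 1.66% of macrophages. Tumour-like cells, which stand for a class without the gene, had 0.150% and 0.123%. Unthinned, the shares were 66.7% and 57.5% in monocytes, 32.1% and 19.8% in T cells, 5.76% and 2.70% in macrophages, and 1.28% and 0.710% in tumour-like cells. The median depth was 3267 and 2405 UMIs in monocytes, 2784 and 2688 in T cells, 5379.5 and 3951 in macrophages, and 18744 and 14667 in tumour-like cells.

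Cells near a gate's edge were looked at because the gates set who is counted. Among cells with 5 to under 10 C1q UMIs per 10000, just outside the macrophage gate, Ly6c2 was at 107 and 35.0 CPM. Just inside, from 10 to under 20, it was at 132 and 20.6 CPM, and at 50 or more, where 3445 control and 3452 knockdown macrophages lay, it was at 19.6 and 9.81 CPM. Ly6c2 was thus lower in the knockdown library in all 3 ranges. With 1 Cd3 UMI, just outside the T cell gate, Ly6c2 was at 7.10 and 4.15 CPM, with 2 UMIs at 37.7 and 31.5 CPM, and with 3 or more at 217 and 135 CPM. Just outside the monocyte gate, from 10 to under 20 Lyz2 UMIs per 10000, it was at 272 and 95.2 CPM, and from 20 to under 40 at 427 and 180 CPM. Cells with tumour-like markers but 2000 to under 5000 UMIs had 68.9 and 9.94 CPM of Ly6c2, far above the 0.831 and 0.725 CPM of those with 5000 to under 10000 UMIs.

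The knockdown and control libraries were then compared in each gate, the comparison the series was designed for. Differences are log2 ratios of the knockdown over the control CPM with an exact binomial 95% interval, and a gene was called past 1.5-fold where it had at least 100 UMIs in 1 library. Since the members were chosen with these libraries in view, their counts are given beside the share of all genes called and nothing is read from them.

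In macrophages the members diverged: Ly6c2 was lower, Ly6c1 higher, and Ly6a and Ly6e a little higher in the knockdown library. Ly6c2 had 640 control and 248 knockdown UMIs, a log2 ratio of -1.23 (-1.44 to -1.01), the eighteenth lowest of 10753 genes. Ly6c1 had a ratio of 0.77 (0.66 to 0.87), Ly6a of 0.23 (0.21 to 0.26) and Ly6e of 0.10 (0.07 to 0.14), while the median of all genes was 0.10. Of the 4 members, 1 was at least 1.5-fold higher, where 10.5% of genes were, and 1 at least 1.5-fold lower, where 1.26% were. Under TMM scaling the Ly6a ratio was 0.10 and that of Ly6e -0.04. Tumour RNA moved with the library, and so did the 5 neutrophil markers, at 66.2 control and 33.1 knockdown CPM in macrophages. Their part in these ratios was not tested. In the macrophages with low tumour RNA (3254 and 2788 cells) the Ly6c2 ratio was -0.88 (-1.12 to -0.64), from 28.1 to 15.3 CPM, and that of Ly6c1 0.40 (0.12 to 0.68). Ly6a went there from 948 to 1266 CPM, a ratio of 0.42 (0.39 to 0.45), and Ly6e from 680.0 to 792 CPM, a ratio of 0.22 (0.18 to 0.26). Among these cells 0 members were 1.5-fold higher and 1 was 1.5-fold lower, against 1.55% and 1.7% of 9698 genes. The Ly6c1 ratio in the whole gate was 1.37 with every cell weighted equally. It also rested on how doublets were called: it was -0.06 with Scrublet's own threshold. That threshold removed 22.8% of knockdown and 9.39% of control barcodes, against 10.3% and 9.59% as used here, so it took unequal shares of the libraries.

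In monocytes few cells were at hand, 144 and 40, and the markers of neutrophils moved with the library, as given above. So did the summed T cell markers, from 15.5 CPM (8 UMIs) to 168 CPM (18 UMIs), and their part in these ratios was not tested. Ly6a was lower in the knockdown library, with 319 and 43 UMIs and a ratio of -0.62 (-1.12 to -0.16). The ratios of Ly6c2, 0.27 (-0.05 to 0.57), and Ly6e, 0.28 (-0.06 to 0.61), had intervals that included 0 over the whole gate. In the 112 control and 21 knockdown monocytes with low tumour RNA the ratio was 0.39 (0.02 to 0.75) for Ly6c2, 0.61 (0.21 to 0.98) for Ly6e and -0.86 (-1.54 to -0.24) for Ly6a, with intervals that excluded 0. Over the whole gate, of the 3 members with enough UMIs 0 were 1.5-fold higher, as 3.18% of 785 genes were, and 1 was 1.5-fold lower, as 13.4% were. With low tumour RNA 1 of the 3, Ly6e, was 1.5-fold higher and 1, Ly6a, 1.5-fold lower, against 8.23% and 14.9% of 644 genes. Without the 1 cell of most Ly6e UMIs in each library Ly6e was at 675 and 950.2 CPM there, less than 1.5-fold apart. Looser gate thresholds gave -0.72 for Ly6c2, -0.14 for Ly6e and 0.02 for Ly6a, so none of the 3 directions held under all settings. Without cells that had an S100a8 or S100a9 UMI, neutrophil genes, the ratio was -0.71 for Ly6a, 0.35 for Ly6c2 and 0.30 for Ly6e.

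In T cells both Ly6c genes were lower in the knockdown library and Ly6a and Ly6e were near equal. Ly6c2 had 786 and 375 UMIs, a ratio of -0.61 (-0.80 to -0.44), and Ly6c1 853 and 347 UMIs, a ratio of -0.84 (-1.03 to -0.66). The ratio was -0.03 (-0.11 to 0.04) for Ly6a and -0.01 (-0.11 to 0.09) for Ly6e. Of the 4 members 0 were 1.5-fold higher and 2 were 1.5-fold lower, against 2.07% and 1.08% of 6002 genes. With low tumour RNA (553 and 479 cells) Ly6c2 went from 302 CPM (278 to 327) to 177 CPM (157 to 199), a ratio of -0.77 (-0.98 to -0.57). Ly6a then had 710.1 and 844 CPM, a ratio of 0.25 (0.14 to 0.36), and Ly6c1 had 73 and 35 UMIs, a ratio of -0.80 (-1.43 to -0.20), of which 34 control UMIs were in 1 cell as given above. Of the 3 members with enough UMIs there, 0 were 1.5-fold higher and 1 was 1.5-fold lower, against 1.02% and 0.929% of 3445 genes. The Ly6c2 ratio in all T cells was -0.12 with Scrublet's own threshold, the weakest of the settings tried. Of the T cells, 121 control and 130 knockdown cells also passed the macrophage gate, and without cells in more than 1 gate the Ly6c1 ratio was -0.62. It was -0.31 with looser gates and -0.41 without doublet removal, no longer past 1.5-fold under either.

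**Figure D2:**
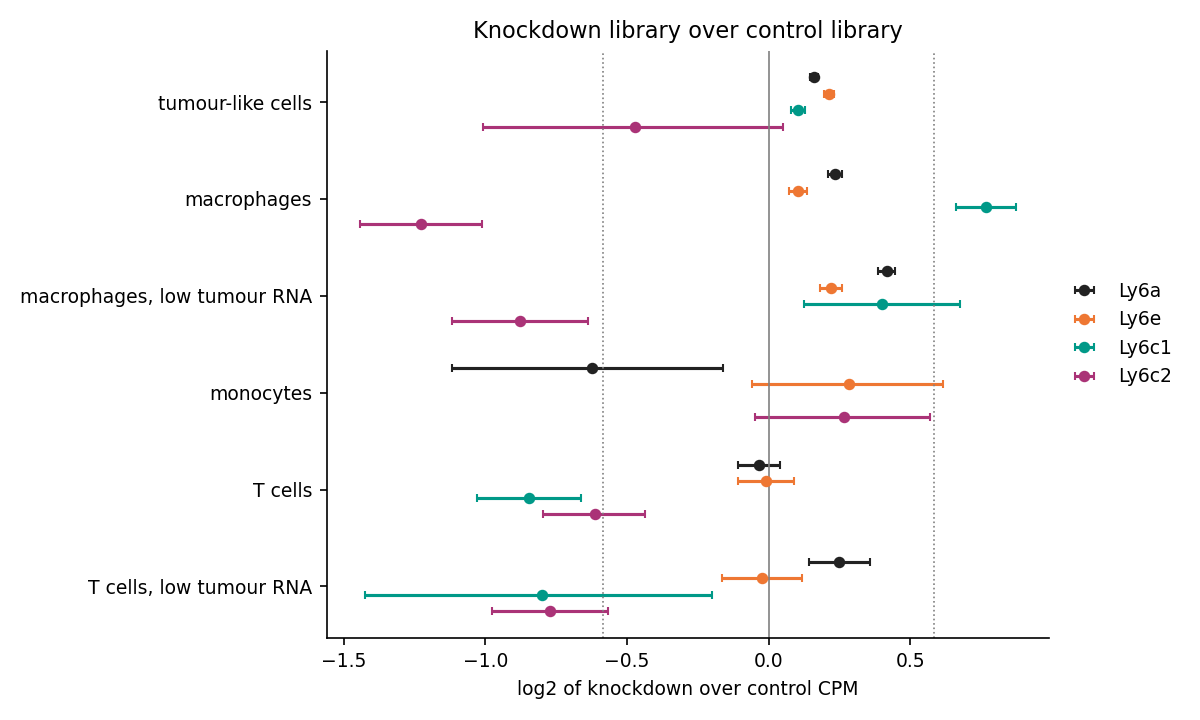
Log2 ratio of the knockdown over the control CPM (x axis) for each member (colours) in each gate, and in macrophages and T cells with low tumour RNA, with 1 library a group. Bars are exact binomial 95% intervals of counting error, dotted lines mark 1.5-fold, and Ly6c1 in monocytes (5 and 2 UMIs) is left out. Ly6c2 lies left of 0 in macrophages and T cells under both cell choices and right of 0 in monocytes.

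Among T cell subsets, CD8 cells held 569 of the 786 control and 254 of the 375 knockdown Ly6c2 UMIs. T cells with a Cd8a or Cd8b1 UMI and none of Cd4 or Foxp3 (478 and 420 cells) had 231 and 121 CPM of Ly6c2, and with low tumour RNA (360 and 309 cells) 304 CPM (276 to 335) and 164 CPM (142 to 189). CD4 conventional T cells, 36 and 27 of them, had 17 and 12 UMIs or 129 and 111 CPM. Regulatory T cells, marked by Foxp3, had 0 Ly6c2 UMIs in 17 control and 14 knockdown cells. Ly6a was highest in those subsets, at 978 and 1983 CPM in CD4 conventional and 1584 and 2573 CPM in regulatory T cells, against 793 and 757 CPM in CD8 cells. Tumour RNA in regulatory T cells was 2901 control and 72.5 knockdown CPM, and its part in their Ly6a levels was not tested.

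In tumour-like cells, which had the most UMIs, Ly6a, Ly6c1 and Ly6e were all slightly higher in the knockdown library. Ly6a had 78448 and 74089 UMIs, a ratio of 0.16 (0.14 to 0.17). The ratio was 0.10 (0.08 to 0.13) for Ly6c1 and 0.21 (0.19 to 0.23) for Ly6e, and the median of all genes was 0.04. Of the 3 members with enough UMIs, 0 were 1.5-fold higher and 0 were 1.5-fold lower, against 2.33% and 0.736% of 12372 genes. The Ly6c2 ratio of -0.47 (-1.01 to 0.05) rested on 82 and 50 UMIs and was 0.32 without doublet removal. Without the cells that had a Krt16 or Klk8 UMI, 585 control and 256 knockdown cells, the ratio of the 4 members together was 0.30 against 0.17.

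Tumour-like cells were divided by 6 gene sets into states, each the 10% of cells with the highest sum except Krt16 and Klk8, which held every cell with a UMI of either gene (841 cells), and a cell could be in several. A state is a range of a sum, not a cell type: of the 1020 cells in a state, 512 lay within 10% of the threshold for matrix and 161 for Csmd3 and Robo2. In the matrix state, taken from genes such as Col3a1, Sparc and Postn, Ly6a was at 1559 control and 1801 knockdown CPM against 703 and 765 CPM in the rest, log2 differences of 1.15 (1.12 to 1.18) and 1.23 (1.21 to 1.26). Ly6c1 was 0.98 and 1.42 above the rest there and Ly6e 1.01 and 0.72. In cells with Cryab, a small heat shock protein, and Krt14 the Ly6a difference was 0.86 and 0.77 and that of Ly6c1 1.22 and 0.98, whereas Ly6e differed by -0.11 and -0.16. In cells with Krt16, a stress keratin, or Klk8 Ly6a was 1.07 and 0.50 above the rest. Cycling cells and cells with Tnnt2 and Tafa5 were below it: the Ly6a difference was -0.31 and -0.80 in cycling cells and -0.31 and -0.58 in Tnnt2 and Tafa5 cells. Ly6e was lowest in the Tnnt2 and Tafa5 cells, at 332 and 367 CPM.

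Among the states, that of Csmd3 and Robo2 had the largest ratios between libraries for Ly6a and Ly6c1, but not for Ly6e. There Ly6a was at 1841 CPM (1810 to 1872) in 394 control cells and at 837 CPM (817 to 856) in 626 knockdown cells, a log2 ratio between libraries of -1.14 (-1.18 to -1.10). Against the rest of its own library, Ly6a differed by 1.45 (1.42 to 1.48) among control cells and by -0.02 (-0.05 to 0.02) among knockdown cells. Ly6c1 went from 711 to 273 CPM and Ly6e from 686 to 627 CPM, a ratio of -0.13 against 0.18 in the Cryab and Krt14 state. Csmd3, an adhesion-type receptor gene, was at 240.3 and 215 CPM in these cells and Robo2, an axon guidance receptor gene, at 27.0 and 35.3 CPM. Both genes chose the cells, so their levels are a description, and the Robo2 ratio was 0.39 (0.12 to 0.65). Of the 1020 cells in this state, 180 were also in the matrix state and 140 in the Krt16 and Klk8 state. A further overlap was 76 cells with the cycling state, 49 with Tnnt2 and Tafa5 and 48 with Cryab and Krt14. The part of these overlaps in the ratios was not tested. Ly6a in cells of no state (2709 and 2837) had 558 control and 736 knockdown CPM, a ratio of 0.40 (0.38 to 0.42). In 5 of the 6 states the sign of the Ly6a difference to the rest was the same in both libraries, the Csmd3 and Robo2 state being the other.

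**Figure D3:**
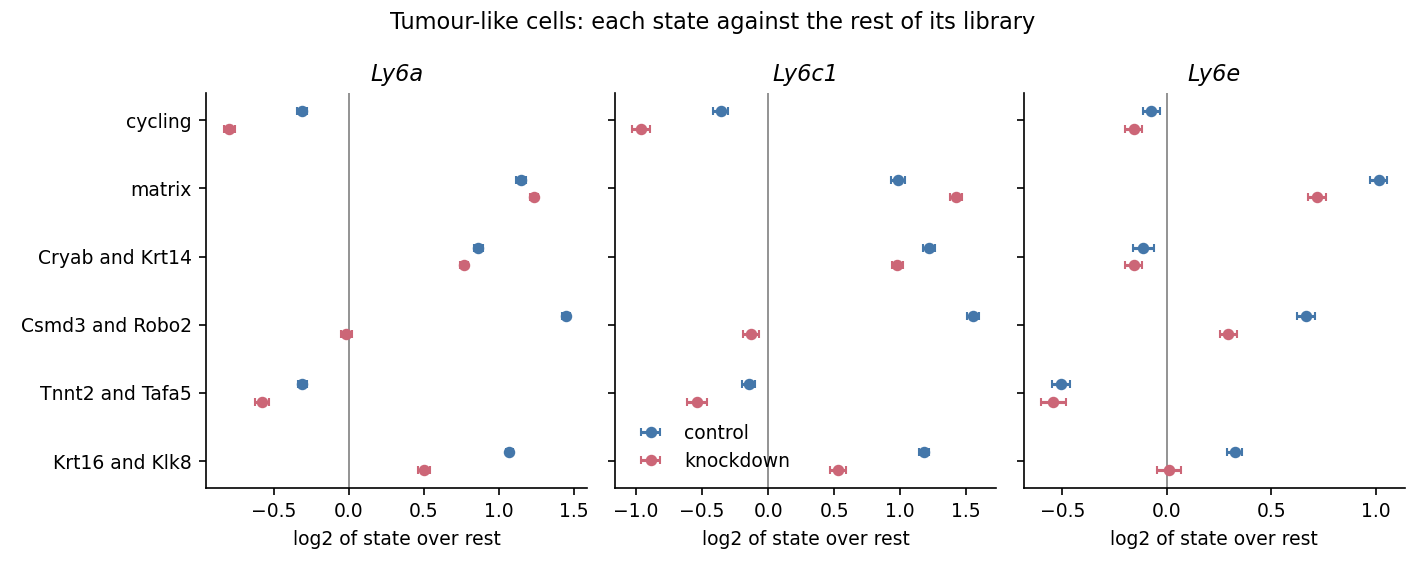
Log2 difference (x axis) of Ly6a, Ly6c1 and Ly6e between each tumour-like state and the remaining tumour-like cells of the same library, control in blue and knockdown in red. Bars are exact binomial 95% intervals of counting error. Matrix cells lie right of 0 for all 3 genes in both libraries, and the Csmd3 and Robo2 state lies far right of 0 for Ly6a and Ly6c1 in the control library alone.

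Across single tumour-like cells Ly6a, Ly6c1 and Ly6e varied together, given here as a description over 4986 control and 5211 knockdown cells that share a library and depth. Spearman's rho of the UMIs per 10000 was 0.76 and 0.75 between Ly6a and Ly6c1, 0.53 and 0.47 between Ly6a and Ly6e, and 0.37 and 0.34 between Ly6c1 and Ly6e. Ly6c2, with 82 and 50 UMIs in these cells, had a rho of 0.022 and 0.016 with Ly6a and no higher with Ly6c1 and Ly6e. With total UMIs, Ly6a had -0.12 and -0.06. In macrophages with low tumour RNA the rho of Ly6a and Ly6e was 0.39 and 0.35. There Ly6c1 had a rho of 0.006 and 0.048 with Ly6a, and of -0.048 and 0.003 with Ly6e.

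Ly6a and Ly6e are interferon-inducible, so cells were ranked by a list of 29 interferon-stimulated genes, of which 28 were in the files and none is a Ly6 gene, and split into 4 groups of equal size over both libraries, from 1 (lowest) to 4 (highest). In macrophages Ly6a was higher in each further group, from 499 CPM in the lowest through 901 and 1235 to 1692 CPM in the highest group of the control library, and from 606 through 905 and 1210 to 1702 CPM in the knockdown library. Within a group the Ly6a ratio was 0.28 (0.21 to 0.35) in the lowest group, where the intervals of the libraries lay apart, and 0.01, -0.03 and 0.01 in the others, against 0.23 over all macrophages. Ly6e went from 480.3 to 931 CPM in control and from 512 to 921 CPM in knockdown macrophages, with ratios of 0.09, -0.06, -0.05 and -0.02. More knockdown cells lay in the highest group, 1333 against 804, and fewer in the lowest, 816 against 1320. In macrophages with low tumour RNA the Ly6a ratios were 0.27, 0.20, 0.22 and 0.02, so the ratios of groups 2 and 3 moved with that choice of cells, while those of groups 1 and 4 were close to their values over all macrophages.

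Ly6a also rose in steps in tumour-like cells, where tumour RNA rose too. The sum of Hmga2, Dcn and Col3a1 went from 1586 CPM in the lowest to 3992 CPM in the highest control group. In the knockdown library that sum went from 1735 to 3718 CPM, and its part in the Ly6a steps was not tested. Ly6a went from 392 through 738 and 1007 to 1300 CPM in the control library and from 438 through 676 and 889.7 to 1231 CPM in the knockdown library. Its ratio within groups was 0.16, -0.13, -0.18 and -0.08, so in 3 of 4 groups Ly6a was lower in the knockdown library although it was higher over all tumour-like cells. Here too the cells were spread unequally, 1657 control and 892 knockdown cells in the lowest group and 949 and 1601 in the highest. Of the 28 list genes 28 were higher in knockdown tumour-like cells, 3 of them past 1.5-fold where 2.33% of all genes were, with a median ratio of 0.36 against 0.04 over all genes. Examples are Isg15, a ubiquitin-like antiviral protein, from 266 to 413 CPM, and Oasl1 from 8.45 to 13.4 CPM. In macrophages 26 of 28 were higher, 3 of them past 1.5-fold where 10.5% of all genes were. With low tumour RNA 27 of 28 were higher, 9 of them past 1.5-fold where 1.55% of all genes were. The median ratio of the list was 0.40 under both cell choices, against 0.10 over all genes in all macrophages and 0.003 with low tumour RNA. An example is Ifit2, an inhibitor of translation, from 186 to 337 CPM over all macrophages.

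Ly6c2 followed these steps in control but not in knockdown macrophages. In the control library it went from 10.7 CPM in the lowest interferon group through 24.5 and 40.2 to 47.5 CPM in the highest, and in knockdown macrophages it was 10.5, 7.41, 13.4 and 14.5 CPM. The ratio between libraries was -0.03 (-0.58 to 0.51) in the lowest group and -1.73, -1.59 and -1.72 in the others. With low tumour RNA the ratios were 0.33, -1.50, -1.15 and -1.49. In monocytes Ly6c2 was higher in each further group of both libraries, from 636 through 689.5 and 929 to 1175 CPM in the control library. In the knockdown library it went from 0 UMIs in 9 cells (which allows up to 247 CPM) through 841 and 1172 to 1751 CPM. Each knockdown group held 9 to 13 cells, and intervals of neighbouring groups above the lowest overlapped. Tumour RNA in the knockdown groups fell from 2549 through 621 and 357 to 272 CPM. In the control groups tumour RNA was 215, 172, 314 and 146 CPM, and its part was not tested. In T cells with low tumour RNA Ly6c2 went from 232 through 325 and 241 to 459 CPM in the control library. In the knockdown library it went from 85.2 through 108 and 189.6 to 337 CPM.

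**Figure D4:**
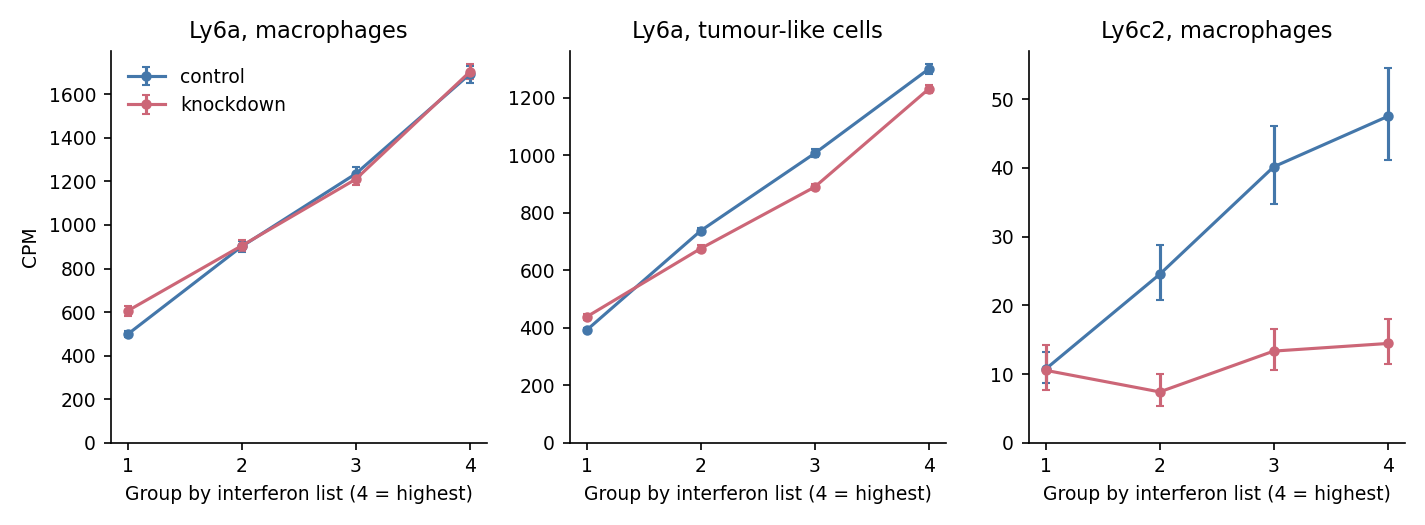
CPM (y axis) of Ly6a in macrophages and tumour-like cells and of Ly6c2 in macrophages, by group of cells ranked on 28 interferon-stimulated genes (x axis, 1 lowest to 4 highest), in the control (blue) and knockdown (red) libraries, with 1 library a point and exact Poisson 95% intervals. Ly6a climbs in both libraries with lines that lie apart in the lowest macrophage group (499 and 606 CPM) and nearly overlie in the other 3, and Ly6c2 spans 10.7 to 47.5 CPM in the control and 7.41 to 14.5 CPM in the knockdown library.

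Macrophages with a Ly6c2 UMI were set beside those without one, in cells with low tumour RNA. In the control library all 13 genes of the monocyte list were higher in the Ly6c2-positive macrophages. Among them Plac8, a gene of monocytes and neutrophils, was at 325 against 16.3 CPM, Ccr2, the receptor that brings monocytes into tissue, at 153 against 33.6 CPM, and Chil3, a chitinase-like protein, at 332 against 17.04 CPM. In the knockdown library 5 of the 10 list genes with at least 20 UMIs were higher. Plac8 was at 323 against 23.3 CPM and Ccr2 at 182 against 26.6 CPM, much as in the control. Chil3 was also higher in positive cells, at 9.44 against 0.968 CPM, but from 4 and 12 UMIs. Of the 11 genes of mature macrophages 1 was higher in positive cells in each library. Ly6a was higher in positive cells too, at 1292 against 927 CPM in the control and 1689 against 1251 CPM in the knockdown library. These cells were chosen on Ly6c2, so the comparison describes them and tests nothing.

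The lists themselves moved unevenly between libraries. In macrophages with low tumour RNA 4 of the 12 monocyte genes with enough UMIs were past 1.5-fold lower and 1 past 1.5-fold higher, where 1.7% and 1.55% of all genes were, with a median ratio of -0.19. Chil3 went from 35.4 to 1.25 CPM, a ratio of -4.83 (-5.64 to -4.12), and Hp, which encodes haptoglobin, from 5.50 to 1.17 CPM, while Ms4a4c went from 194 to 254 CPM and Thbs1 from 36.6 to 55.5 CPM. Of the 11 mature macrophage genes 0 were past 1.5-fold higher and 1 was lower, Gpnmb, a lysosomal glycoprotein, from 71.7 to 45.2 CPM, with a median of -0.06.

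T cells with and without a Ly6c2 UMI were compared for the genes of effector function and exhaustion, which differed in both directions. In the control library with low tumour RNA, Gzma, which encodes granzyme A, was at 1390 CPM in Ly6c2-positive and 317 CPM in Ly6c2-negative cells, and Ccl5, a T cell chemokine, at 5099 and 2009 CPM. In the knockdown library Gzma was at 309 and 136 CPM and Ccl5 at 2498 and 1930 CPM. Tox, a transcription factor of exhausted T cells, went the other way, with 220.0 against 526 CPM in the control and 268 against 557 CPM in the knockdown library. The checkpoint receptor genes Pdcd1 (98.6 against 208 and 144 against 219 CPM) and Lag3 (36.4 against 98.7 and 64.3 against 154 CPM) were also lower in positive cells. Of the memory and naive list, 6 of 10 genes were higher in positive control cells and 7 of 11 in positive knockdown cells. Tcf7, a factor of memory and stem-like T cells, was among them, at 59.2 against 23.0 CPM and 61.8 against 28.7 CPM, and so was the chemokine receptor Cxcr3, at 109 against 39.8 CPM and 77.2 against 31.1 CPM. Il7r, the interleukin-7 receptor of naive and memory cells, was lower in positive cells, at 51.6 against 138 CPM and 61.8 against 94.9 CPM, as were Cd44 and Il2rb. Of 16 effector and exhaustion genes 5 were higher in positive control cells and 4 in positive knockdown cells with low tumour RNA, and 5 and 8 over all T cells. The genes named here are examples chosen after their values were seen, and the plot of Ly6c2-positive and Ly6c2-negative cells shows the whole effector and exhaustion list.

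**Figure D5:**
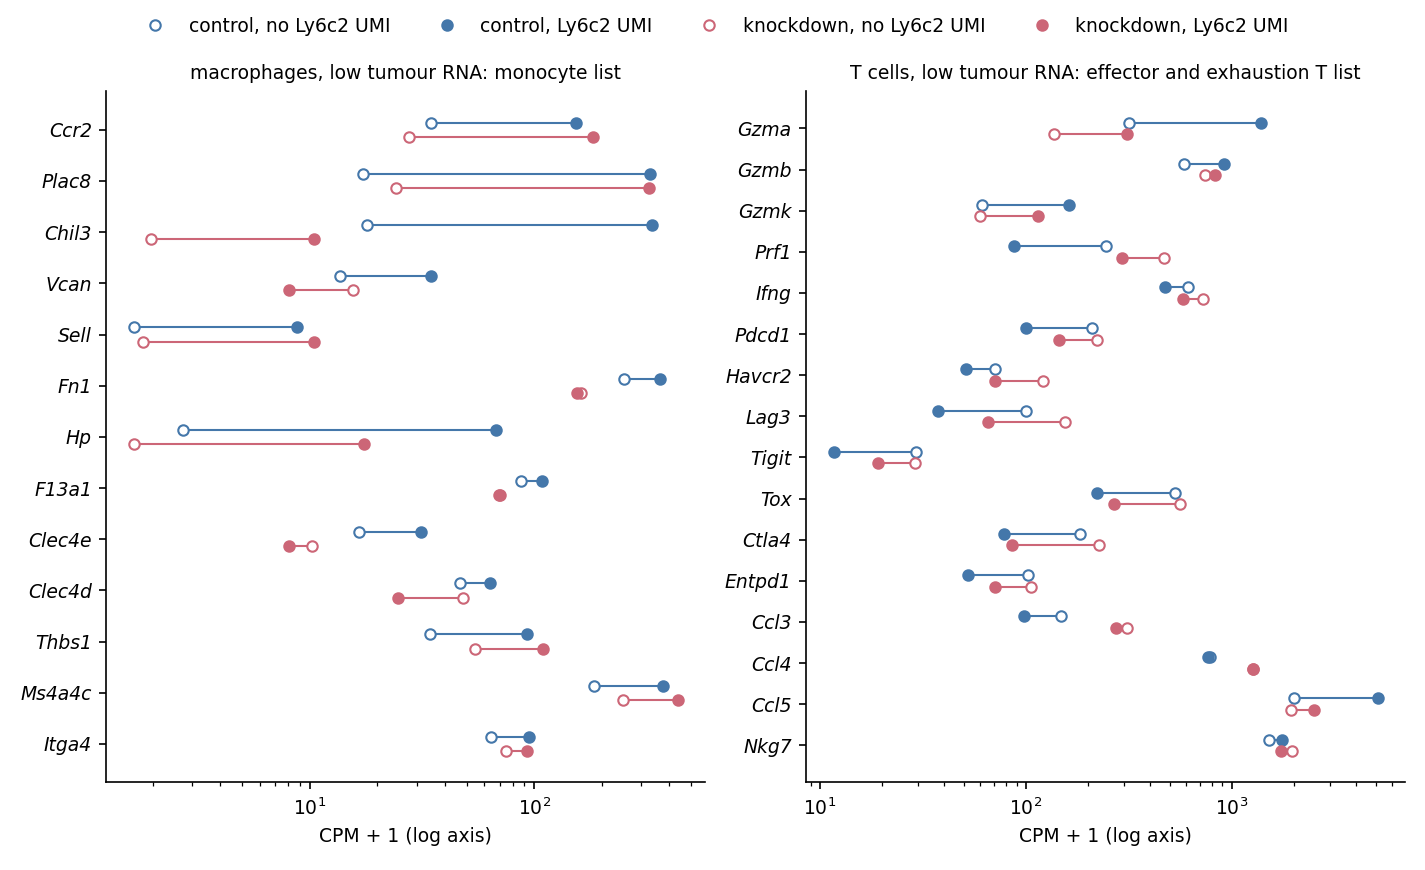
CPM plus 1 on a log axis in cells with (filled) and without (open) a Ly6c2 UMI, for the whole monocyte list in macrophages (left) and the whole effector and exhaustion list in T cells (right), cells with low tumour RNA, control in blue and knockdown in red. No error is drawn, and some positive groups rest on few UMIs, such as 3 of Vcan in knockdown macrophages. Plac8 and Ccr2 are far higher in Ly6c2-positive macrophages of both libraries, and Tox, Pdcd1 and Lag3 are lower in Ly6c2-positive T cells of both.

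Between libraries, T cells with low tumour RNA had 5 of 15 effector and exhaustion genes past 1.5-fold higher and 1 lower, where 1.02% and 0.929% of all genes were. That 1 was Gzma, from 677 to 177 CPM, a ratio of -1.93 (-2.12 to -1.75), followed by Ccl5 from 3045 to 2064 CPM, whereas Prf1, which encodes perforin, went from 191 to 424 CPM and Ccl3 from 129.7 to 300.1 CPM. The median ratio of the list was 0.25 against 0.01 over all genes. Of 7 memory and naive genes 1, Cxcr3, was past 1.5-fold lower, from 63.1 to 42.0 CPM, and 0 were past it higher. The interferon list, in which 14 of 25 genes were higher, had a median of 0.03 in these T cells. Over all T cells 23 of 26 were higher, 5 of them past 1.5-fold where 2.07% of all genes were. Their median was 0.26, against 0.05 over all genes.

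Of the 34 other genes of the Ly6 and uPAR family that were listed, 5 had at least 100 UMIs in tumour-like cells. Tex101, known as a germ cell protein of the testis, was at 277 and 245 CPM there, a ratio of -0.18 (-0.20 to -0.15). Slurp1, a secreted member, went from 7.52 to 2.17 CPM, a ratio of -1.79 (-2.03 to -1.56), and was the 1 gene of the 5 past 1.5-fold, where 0.736% of all genes were lower and 2.33% higher by that much. Plaur, the urokinase receptor, was at 36.4 and 28.9 CPM in tumour-like cells and at 121 and 92.8 CPM in macrophages, lower in the knockdown library in both. Gpihbp1, which carries lipoprotein lipase on capillaries, was at 4156 and 3493 CPM in the endothelial cells. Ly6i, which lies between Ly6e and Ly6a in the RefSeq order, had 320 of its 462 control and 213 of its 294 knockdown UMIs in macrophages, at 13.5 and 9.90 CPM, but a higher level in monocytes, at 119.7 and 242 CPM. Ly6a2, the neighbour of Ly6c2 on the other side, had 77 and 21 UMIs in all. Of the 11 genes that build and attach the GPI anchor, in tumour-like cells 0 were past 1.5-fold in either direction, against the same shares of all genes, with a median ratio of -0.01 and a range from -0.16 for Gpaa1 to 0.30 for Piga.

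Genes with the most similar profile were sought over 23 points, the gates, subsets and states with at least 50 cells in a library, among 13640 genes, as Pearson's r of log2(CPM + 1). The points share cells and libraries, so r is a description. Ly6c1 was most like Mt2 (r = 0.95), which encodes a metallothionein, followed by Tmem45a, Igfbp6, Tmem151a and Vasn. Ly6c2 was most like Gm43672, Hipk1, Map4k1, Dedd2 and Cdh1 (r from 0.98 to 0.97). Monocytes entered by the control library alone, since the 40 knockdown monocytes fell below the limit. Gm43672, Dedd2 and Cdh1 reached at most 13.5, 21.2 and 25.1 CPM at any point, so their r rests on few UMIs. Among the genes most like Ly6e were Trp53inp2, Ggh, Mbnl2 and Tpp1 (r from 0.93 to 0.91), and Ly6a was most like Yipf1, H2bc4, H2ac25, H1f2 and mt-Co1 (r from 0.82 to 0.79). Among the members r was 0.57 between Ly6a and Ly6c1, 0.59 between Ly6a and Ly6e, and -0.72 between Ly6c1 and Ly6c2.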

How the data were processed

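Single-cell RNA was measured in 2 libraries, and the deposited files give raw UMI counts of each gene in each barcode. Cell Ranger 6.1.0 made them per the file headers, whereas the submitters' processing notes name version 3.1.0. The genome build, annotation and cell filters are not given in the sources used here, so coordinates are those of the RefSeq and GENCODE tables alone. Scrublet scores were computed with scanpy 1.11.5 in Python 3.11.15, and the highest-scoring cells were removed at 0.8% per 1000 cells (1148 control and 1322 knockdown cells). UMIs were summed per gate and library, with Poisson, conditional binomial and Clopper-Pearson intervals (scipy 1.17.1) that cover counting error only. Calls needed 100 UMIs in 1 library and a 1.5-fold ratio, with a floor of 3 counts for 0. The ratio and interval code was tested on simulated data. Sequences were aligned with Biopython 1.88. TMM factors (edgeR 4.0.16, R 4.3.3), a median of ratios, doublet, filter and gate settings were tried as alternatives.

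The members and gene lists were chosen with earlier results of these data known. The text names the 4 members everywhere, the 2 highest and 2 lowest ratios of each list, and the 5 genes most like each member, of which 1 is not reported here; other genes were named after their values were seen. The rule gives no unit for the T cell gate, which was taken as 2 UMIs.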

Additional observations from a re-analysis of the deposited data

Results flagged for a closer look

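In 4 cases the knockdown-over-control ratio of a member lay on opposite sides of 0 in a pair of cell classes, with both intervals of counting error clear of 0. With 1 library a group none of these differences between classes was tested. The Ly6a ratio in macrophages minus that in monocytes was 0.86 on the log2 scale, and the ratio in monocytes minus that in tumour-like cells was -0.78. The Ly6c1 ratio in macrophages minus that in T cells was 1.61, and the ratio in T cells minus that in tumour-like cells was -0.95. The monocyte values rest on 144 control and 40 knockdown cells, and the opposite direction was lost with looser gates, where Ly6a in monocytes had a ratio of 0.02. The Ly6c1 difference between macrophages and T cells depended on the doublet threshold, since the macrophage ratio was -0.06 with Scrublet's own, which removed 22.8% of knockdown but 9.39% of control barcodes. Tumour RNA (Hmga2, Dcn and Col3a1) moved the same way as Ly6c1 in both classes, from 319.9 to 868 CPM in macrophages and from 1134 to 928 CPM in T cells, and its part was not tested. With low tumour RNA the Ly6c1 ratio was 0.40 in macrophages and -0.80 in T cells, where 1 control cell held 34 of 73 UMIs and the levels without the cell of most UMIs in each library were 19.9 and 16.1 CPM.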

How the results depend on the processing

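No paired analysis was possible because each group was 1 library. All ratios rest on UMI depth in that library, and the spread between tumours is unknown. Over 182 comparisons of the 16 single-member ratios with other settings, 132 moved the ratio by less than its counting interval, 48 moved it further and 2 turned a ratio past 1.5-fold. The 2 were Ly6c1 in macrophages (-0.060, Scrublet's own threshold) and Ly6a in monocytes (0.021, looser gates); the cause was not tested. Counted over all ratios, the sign turned in 15 of the 182, over 8 of the 16 ratios, among them Ly6a in T cells and Ly6c2 and Ly6e in monocytes. The 4 members summed had a log2 ratio of 0.19 in macrophages. It was 0.21 without doublet removal, 0.28 with Scrublet's own threshold, 0.21 with stricter gates, 0.32 with low tumour RNA, 0.23 with cells weighted equally, 0.051 with TMM and 0.091 with a median of ratios. In monocytes 0.08 became -0.19 with looser gates, -0.16 with equal weights and -0.23 with TMM. In T cells -0.16 became -0.053 without doublet removal, -0.24 with Scrublet's own threshold, -0.10 with looser gates, -0.013 with low tumour RNA and -0.24 with TMM. In tumour-like cells 0.17 became 0.14 at 10000 UMIs or more, 0.30 without Krt16 and Klk8 cells, 0.16 without cells with an Xist UMI, 0.18 with equal weights, 0.10 with TMM and 0.12 with a median of ratios. Ly6c2 was lower in the knockdown library under all 10 settings in macrophages (-1.37 to -0.88) and all 12 in T cells (-0.997 to -0.12). Calls past 1.5-fold grew with a minimum of 20 UMIs and with none, since more genes of few UMIs are counted: from 1129 to 2214 and 5495 higher and from 135 to 338 and 2550 lower in macrophages, from 25 to 641 and 7319 and from 105 to 798 and 1409 in monocytes, from 124 to 615 and 3681 and from 65 to 406 and 2189 in T cells, and from 288 to 964 and 4294 and from 91 to 354 and 2670 in tumour-like cells.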
